A study of Rattus norvegicus with 22 samples.

Results

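The genes described here make the proteins that copy DNA and divide cells: regulators of G1, the machinery that licenses and fires replication origins, the replicative polymerases, and the kinases, kinetochore parts, condensins and kinesins of mitosis. They were found by symbol, as names beginning with families such as Cdc, Cdk, Cenp, Kif, Mcm, Ncap, Pol or E2f, after 6 symbols that match the same pattern (Mcm2, Mcm3, Mcm4, Mcm5, Kif4a and Aurkb) were set aside. This gave 70 genes of the 32545 identifiers in the count table, of which 23572 had a count. No symbol beginning with Hist was among them, so no core histone gene is described, and the nearest is Cenpa, a histone H3 variant found at centromeres. Symbols were paired with identifiers through a list of 1774 named genes that the authors called between injured and sham animals in the ipsilateral hemisphere, so the 70 genes were chosen by their ipsilateral difference. That difference, and every comparison that uses the same ipsilateral samples, is therefore given as a description. Where counts past a threshold are printed for it, they stand beside the share of all genes, except in some alternative runs. Nothing is read from any of these counts. Genes just outside the authors' threshold carry no name in the list and could not be set beside these.

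Adult male Sprague-Dawley rats, all implanted with EEG electrodes, received a penetrating ballistic brain injury (PBBI) of the right frontal pole or a sham procedure. In PBBI a probe was driven through a right frontal craniectomy and a balloon on it was briefly inflated to form a cavity, and sham rats had the same procedures without the probe. Cortex was taken 24 h later from the injured side (ipsilateral) and the opposite side (contralateral) of each of 6 PBBI rats (numbers 81, 83, 85, 88, 90 and 96) and 5 sham rats (82, 84, 86, 91 and 94), giving 22 samples of total RNA. The sham group therefore carries the craniectomy, the electrodes and the anaesthesia, and only the probe and balloon separate it from PBBI.

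A cell that enters the cycle first raises D-type cyclins, whose kinases inactivate the retinoblastoma protein and release E2F factors. E2F factors then switch on the genes of origin licensing and DNA synthesis, and a later wave, carried by the MuvB complex and its partners on CHR and CCAAT promoter elements, switches on the genes of G2 and mitosis. Cortical neurons have left the cycle for good, whereas glial precursors, microglia, vascular cells and incoming leukocytes can divide after an injury. In bulk tissue, more dividing cells and more RNA in each of them cannot be told apart.

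Libraries held 42085341 to 63412426 counts. Levels are CPM, a gene's counts scaled to a common library total by the trimmed mean of M-values (TMM), and they are compared between genes only after division by gene length, as CPM per kilobase. PBBI rat 85 stood apart from the other 10 rats ipsilaterally: the leading principal component, which held 49.8% of the variance, put it at 200.1 and the others from -71.91 to 72.89. Results that rest on rat 85 are given with and without it. Among marker lists, the list holding only ipsilaterally called genes named none of 9 neuronal, 8 oligodendrocyte lineage or 9 vascular markers, so the cortical identity of the samples could not be checked on those. It named 4 of 8 astrocyte, 5 of 12 microglial and 10 of 13 blood leukocyte markers, and none of these was at 0 in every sample of a PBBI group.

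Promoter sequences are shown first, because genes of the S phase and mitotic waves are classically separated by their promoter elements. The windows are RefSeq's on the assembly GRCr8, from 250 bases before to 50 bases after each transcript start, and 60 of the 70 genes had an entry. The counts were made on another assembly, so these coordinates apply to the sequences only. The 5 motif definitions searched, on both strands, were an E2F-like 8-mer in 4 spellings (TTTGGCGC, TTTCCCGC, TTTCGCGC and TTTGCCGC), the shorter E2F-like strings GCGGGAA and GGCGC, the CCAAT box and the CHR element TTTGAA. All 5 were looked at after the genes' values were known, and all 5 are reported. GGCGC lies within TTTGGCGC, and GCGGGAA overlaps the reverse complement of TTTCCCGC. Below are the 3 S phase genes with most counts among those with an E2F-like 8-mer in the 200 bases before the start, with each 8-mer match in capitals. In Mcm6 the capitals hold 2 overlapping matches.
Mcm6, chr13:42404353-42404552, minus strand: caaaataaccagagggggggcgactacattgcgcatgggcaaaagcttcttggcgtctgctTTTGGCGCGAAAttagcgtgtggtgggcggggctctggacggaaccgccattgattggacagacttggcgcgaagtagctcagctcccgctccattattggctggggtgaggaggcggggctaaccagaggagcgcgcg
Pola1, chrX:62342356-62342555, minus strand: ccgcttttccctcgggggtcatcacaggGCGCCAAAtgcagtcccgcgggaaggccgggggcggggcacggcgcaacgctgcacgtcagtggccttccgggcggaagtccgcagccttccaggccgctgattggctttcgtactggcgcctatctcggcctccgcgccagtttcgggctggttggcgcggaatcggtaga
Cdca7, chr3:77730115-77730314, plus strand: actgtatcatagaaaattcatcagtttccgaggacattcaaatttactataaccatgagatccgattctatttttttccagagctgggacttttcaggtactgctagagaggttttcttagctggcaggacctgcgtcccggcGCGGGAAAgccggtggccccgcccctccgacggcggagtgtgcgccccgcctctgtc
The 3 G2 and mitotic genes with most counts among those with both a CHR element and a CCAAT box in the same 200 bases follow, with both elements in capitals.
Kif22, chr1:191080879-191081078, minus strand: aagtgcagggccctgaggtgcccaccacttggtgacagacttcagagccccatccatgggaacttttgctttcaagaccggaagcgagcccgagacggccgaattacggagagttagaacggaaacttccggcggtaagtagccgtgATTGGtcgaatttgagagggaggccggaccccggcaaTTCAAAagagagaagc
Prc1, chr1:143659281-143659480, plus strand: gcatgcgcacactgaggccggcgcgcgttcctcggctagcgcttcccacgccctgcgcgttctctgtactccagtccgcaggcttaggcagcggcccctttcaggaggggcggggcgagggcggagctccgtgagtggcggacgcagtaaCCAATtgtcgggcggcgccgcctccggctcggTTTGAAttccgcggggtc
Cdk1, chr20:19265093-19265292, plus strand: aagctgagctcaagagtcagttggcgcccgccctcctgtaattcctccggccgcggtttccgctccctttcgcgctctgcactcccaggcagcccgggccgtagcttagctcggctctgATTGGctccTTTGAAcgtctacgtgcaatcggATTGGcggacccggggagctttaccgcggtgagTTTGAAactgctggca

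Over the windows, the E2F-like 8-mer was present in 8 of 16 S phase genes with an entry (Mcmbp, Rfc3, Mcm6, Pola1, Cdca7, Gins1, Pole and Pole2) and in 2 of 37 G2 and mitotic genes (Cdk1 and Kif18a), against 2.25% of all 27457 promoters. The CHR element showed the opposite division, with 23 of 37 G2 and mitotic genes and 2 of 16 S phase genes, against 18.1% of all promoters. CCAAT boxes were in 14 of 16 S phase genes and 22 of 37 G2 and mitotic genes, against 37.7% of all. Both a CHR element and a CCAAT box were in 17 of the 37 G2 and mitotic genes and in 0 of the 16 S phase genes, against 7.25% of all. The shorter E2F-like strings separated the waves less. GCGGGAA was in 4 of 16 S phase and 5 of 37 G2 and mitotic genes, against 4.47% of all promoters, and GGCGC was in 14 of 16 and 23 of 37, against 36.2% of all. A match is a string of letters and not a shown binding site. Genes with and without a motif held no common order of fold changes. Within the S phase genes the median ipsilateral log2 fold change was 1.85 with and 1.48 without the 8-mer, 0.77 and 1.97 for GCGGGAA, 1.76 and 1.01 for GGCGC, 1.48 and 2.06 for CCAAT, and 2.06 and 1.48 for the CHR element. Within the G2 and mitotic genes it was 3.00 with and 2.10 without the 8-mer, 1.34 and 2.15 for GCGGGAA, 2.19 and 2.02 for GGCGC, 2.02 and 2.33 for CCAAT, and 2.01 and 2.42 for the CHR element. Some of these sets hold only 2 genes. The map of motif positions shows where the matches lay.

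**Figure D1:**
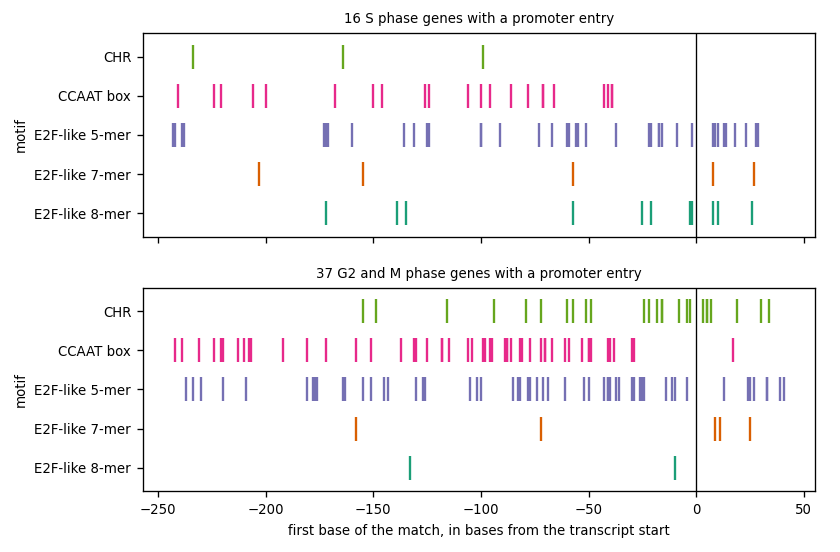
Position of each match to the 5 motif definitions, in bases from the transcript start (x axis), in 16 S phase genes (top) and 37 G2 and mitotic genes (bottom); each tick is a match on either strand. CHR ticks are in 2 of 16 S phase genes and 23 of 37 G2 and mitotic genes, and 8-mer ticks in 8 of 16 and 2 of 37.

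In the ipsilateral cortex, 69 of the 70 genes had a higher level in PBBI than in sham rats and 1, Cdc42ep4, a lower one. The median log2 fold change was 2.02, a 4.06-fold difference, where the median of all 16104 genes compared was -0.02. All 70 genes passed the filter on low counts. By edgeR's quasi-likelihood test 49 were higher and 1 lower past an adjusted p of 0.05, where 4.09% of all genes were higher, and in 45 genes every PBBI rat lay above every sham rat, where 3.5% of all genes did. Because the genes were chosen by this contrast, nothing is read from these counts. The medians of the functional groups ran from 1.36 for DNA synthesis and 1.41 for G1, through 1.62 for condensins and the passenger complex, 2.13 for kinetochores, 2.14 for origin licensing and 2.19 for G2/M regulators, to 2.61 for mitotic kinesins and cytokinesis.

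**Figure D2:**
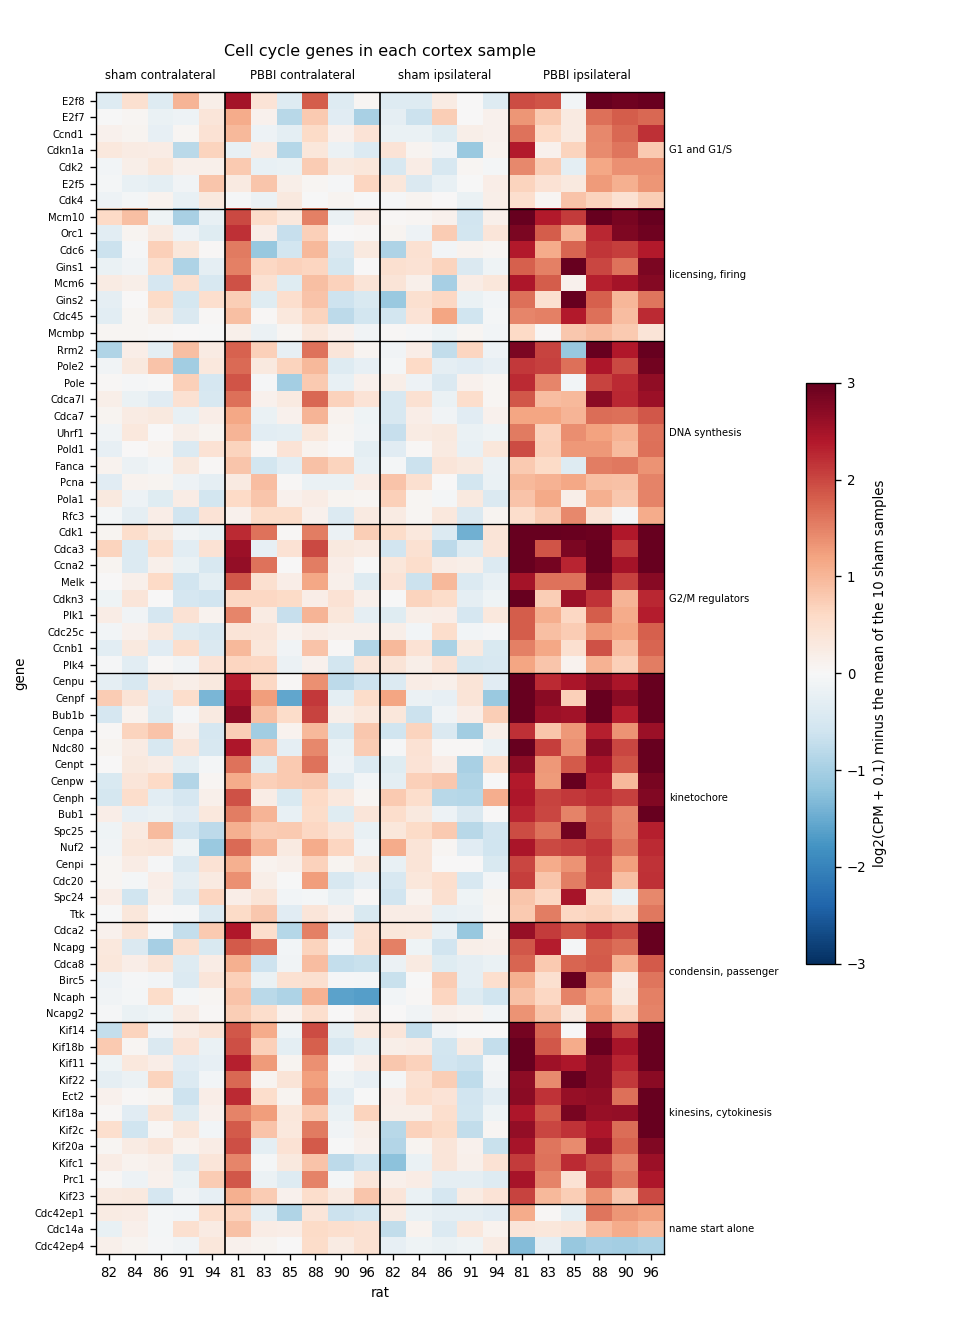
Level of each of the 70 genes (rows, by functional group) in each of the 22 samples (columns, by group and rat number), as log2(CPM + 0.1) minus the mean of the 10 sham samples, with colours stopping at 3 in either direction. Nearly all rows are red in the ipsilateral PBBI samples, and contralaterally the red columns are rats 81 and 88.

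Of the G1 genes, Ccnd1, the D-type cyclin that activates Cdk4 and Cdk6, stood at 90.0, 44.1, 35.1, 79.3, 96.3 and 134.0 CPM in ipsilateral PBBI rats 81, 83, 85, 88, 90 and 96. The 5 sham rats lay between 22.6 and 33.2 CPM, below every PBBI rat, for a 2.88-fold difference. Cdk4, its kinase partner, differed by 1.47-fold, from 42.8 ± 4.02 CPM (SD, n = 5) in sham to 62.8 ± 11.5 (n = 6) in PBBI rats, with PBBI rat 83 inside the sham range. Cdkn1a, the p53-induced inhibitor p21, varied widely between PBBI rats, from 12.0 CPM in rat 83 to 58.2 in rat 81, against 5.04 to 14.7 in sham rats. Cdk2, the kinase of the G1/S transition, stood at 6.44 ± 2.28 against 2.77 ± 0.625 CPM.

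The E2F genes of the set are all repressors of the family. E2f5, which works with pocket proteins, was at 15.2 ± 4.55 CPM in PBBI and 8.07 ± 1.72 in sham rats. The atypical repressors E2f7 and E2f8 were far rarer, at 0.248 and 0.226 CPM per kilobase in PBBI rats where E2f5 was at 15.0. E2f8 had 26, 26, 1, 66, 62 and 68 counts in PBBI rats 81, 83, 85, 88, 90 and 96 and at most 2 in any sham rat. The ratio of the summed counts, 249 against 4 and scaled to library size, was 42.9, with an exact 95% interval of 16.5 to 159.0 that covers counting error only. Rat 85, at 1 count, lay among the sham rats. The fitted log2 fold change of E2f8, 5.10, depends on the prior count added to such low values.

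Origin genes spread widely. Mcm10, which activates the replicative helicase, had one of the 5 highest fold changes, at 10.7-fold, with 1.54 to 4.67 CPM in PBBI and 0.159 to 0.329 CPM in sham rats. Orc1, a subunit of the origin recognition complex, differed by 7.41-fold, and Cdc6, which loads the helicase, by 4.9-fold, both with every PBBI rat above every sham rat. Mcm6, a subunit of the helicase ring, was at 20.1, 13.0, 3.98, 18.7, 21.0 and 25.2 CPM in rats 81, 83, 85, 88, 90 and 96, and sham rats lay between 1.76 and 4.79. Rat 85 alone fell into the sham range. Of the CMG helicase parts, Gins1 was at 7.41 ± 4.15 against 1.68 ± 0.527 CPM, Gins2 at 5.2 ± 4.05 against 1.38 ± 0.614 and Cdc45 at 5.56 ± 2.08 against 1.84 ± 1.1. Rat 85 was the highest PBBI rat for each, at 14.4, 13.1 and 8.47 CPM, where the other PBBI rats had medians of 5.06, 4.19 and 4.59. Mcmbp, which binds MCM subunits, differed least of the origin genes, by 1.57-fold.

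Among the DNA synthesis genes Pcna, the sliding clamp, was the most abundant gene of the whole set per length, at 115.0 CPM per kilobase in PBBI and 62.4 in sham rats. Its PBBI values ran from 115.0 to 177.0 CPM and its sham values from 42.8 to 113.0, so the groups did not overlap although the gap between them was narrow. The differences of polymerase subunits ran from small to large in the order Pola1 (1.76-fold), Pold1 (2.54-fold), Pole (4.25-fold) and Pole2 (5.72-fold). For Pole, PBBI rat 85, at 1.02 CPM, lay inside the sham range of 0.775 to 1.25. Rrm2, the small subunit of ribonucleotide reductase, was at 3.92, 2.22, 0.158, 4.52, 2.88 and 5.67 CPM in PBBI rats 81, 83, 85, 88, 90 and 96, and at 0.241 to 0.793 in sham rats. Rat 85 lay below every sham rat for this gene.

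The chromatin genes of S phase lay between these. Uhrf1, which brings the maintenance methyltransferase to new DNA, was at 11.4 ± 2.64 against 4.44 ± 1.18 CPM. Cdca7, partner of the remodeller Hells, differed by 3.04-fold, and its paralog Cdca7l by 4.09-fold. Rfc3, a subunit of the clamp loader, and Fanca, of the Fanconi anemia core complex, differed by 1.64- and 2.14-fold with overlapping groups.

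Regulators of mitotic entry differed by 1.9- to 10.5-fold. Cdk1, the kinase that drives cells into mitosis, was at 13.5, 10.3, 9.44, 9.29, 6.36 and 24.4 CPM in PBBI rats 81, 83, 85, 88, 90 and 96, and at 1.7, 1.43, 0.829, 0.349 and 1.51 CPM in sham rats 82, 84, 86, 91 and 94. The lowest PBBI rat stood well above the highest sham rat, and the fitted difference was 10.5-fold (log2 3.39, SE 0.48). Ccna2, cyclin A2, differed by 8.67-fold and Cdca3, a protein of mitotic entry, by 9.89-fold, whereas Ccnb1, cyclin B1 and the partner of Cdk1, differed by 2.29-fold with 4 of 6 PBBI rats above every sham rat. Cdkn3, a phosphatase acting on cyclin-dependent kinases, was at 7.59 ± 5.34 against 1.67 ± 0.524 CPM. Melk, a kinase of proliferating cells, and the polo-like kinase Plk1 differed by 5.02- and 3.25-fold. Cdc25c, the phosphatase that activates Cdk1, and Plk4, the kinase of centriole duplication, were nearer to sham, at 2.41- and 1.9-fold.

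Kinetochore genes were higher in 15 of 15 cases, where 7779 of all 16104 genes were, and nothing is read from this count. Cenpu, of the constitutive centromere network, had the second highest fitted difference of the set, 12.6-fold, from 0.139 ± 0.058 to 1.77 ± 1.02 CPM. The other network genes were Cenph (4.39-fold), Cenpi (3.5-fold), Cenpt (6.55-fold) and its partner Cenpw (5.08-fold). Cenpa, the centromeric histone, was at 0.265 to 1.12 CPM in PBBI and 0.0 to 0.228 CPM in sham rats. Of the NDC80 complex, which grips microtubules, Ndc80 differed by 6.56-fold, Spc25 by 4.04-fold, Nuf2 by 3.82-fold and Spc24 by 2.29-fold. Rat 85 was the highest PBBI rat for Spc24, Spc25 and Cenpw, at 20.5, 9.78 and 8.65 CPM. The other PBBI rats had medians of 5.61, 5.03 and 4.06 for these genes. For Spc24, PBBI rat 90, at 3.12 CPM, lay inside the sham range of 2.4 to 5.11. The spindle checkpoint genes were Bub1b (8.37-fold), Bub1 (4.32-fold) and Ttk (2.02-fold), and Cdc20, which activates the anaphase-promoting complex, differed by 3.4-fold. Cenpf, a kinetochore protein of G2 and mitosis, was at 4.04 ± 2.14 against 0.476 ± 0.345 CPM, with 5 of 6 PBBI rats above every sham rat.

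The condensin I subunits Ncapg and Ncaph differed by 3.76- and 2.13-fold, and the condensin II subunit Ncapg2 by 2.03-fold. For Ncapg, PBBI rat 85, at 0.587 CPM, lay inside the sham range of 0.374 to 1.92. In the passenger complex, Birc5 (survivin) was at 19.3 CPM in PBBI rat 85 and 2.81 to 7.44 in the other 5 PBBI rats, against 1.47 to 4.14 in sham rats. Cdca8 (borealin) differed by 3.39-fold, and Cdca2, which brings phosphatase to chromatin at mitotic exit, by 6.87-fold.

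All 11 genes of the mitotic kinesin and cytokinesis group were higher, and in 10 of them every PBBI rat lay above every sham rat, where 3.5% of all genes did. Nothing is read from these counts, since this contrast chose the genes. Kif14, a kinesin of cytokinesis, differed by 12.3-fold but with rat 85, at 0.0678 CPM, inside the sham range of 0.0 to 0.111. Kif22, a chromokinesin, was at 13.1, 5.34, 30.1, 13.5, 8.8 and 13.3 CPM in rats 81, 83, 85, 88, 90 and 96, and at 1.11 to 3.31 in sham rats. Kif11, which separates spindle poles, differed by 6.62-fold. Its relatives in chromosome movement, Kif18a, Kif18b and Kif2c, differed by 6.11-, 8.7- and 5.82-fold, and Kifc1, which bundles spindle microtubules, by 4.29-fold. For the cleavage machinery the differences were 6.23-fold for Ect2, 5.67-fold for Kif20a, 4.08-fold for Prc1 and 2.54-fold for Kif23.

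Of the 70 genes, 3 match the pattern by the start of their name alone and belong to none of the groups above. Cdc42ep4, an effector of the small GTPase Cdc42, was the one gene lower in PBBI rats, at 29.0 to 59.2 CPM against 60.3 to 85.5 in sham rats, with no overlap. Its relative Cdc42ep1 was higher, at 29.4 ± 13.1 against 13.3 ± 2.38 CPM. Cdc14a, related to a yeast mitotic exit phosphatase, differed by 1.73-fold.

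PBBI rats differed among themselves. Rat 96 had the highest ipsilateral level in 37 of the 70 genes and rat 85 the lowest in 30 and the highest in 10. The 30 genes lowest in rat 85 had a median annotated length of 3331 bases and the 10 highest a median of 1275 bases. The same tilt ran through all genes: against the median of the other 5 PBBI rats, rat 85 was higher by a median log2 of 0.52 over 7956 genes of up to 2237 bases, and was at -0.80 over 4372 genes of 3382 bases or more. Spearman's rho of its deviation with length was -0.36 over the 70 genes and -0.381 over 16104 genes, as a description, since genes of a library share its depth and RNA. A tilt with length was not confined to rat 85: over all genes rat 90 had 0.346 ipsilaterally, the other direction, with 0.145 over the 70 genes. The contralateral sample of rat 85 had -0.33 over 66 genes and -0.45 over 15907. The plot of length against deviation was chosen after these values were seen. Rat 85 was above every sham rat in 54 genes, where 32.7% of all genes were, and below every sham rat in 2. The other 5 PBBI rats were all above every sham rat in 58 genes, where 5.89% of all genes were, and again nothing is read from counts that the choice of genes fixed. Without rat 85 the median ipsilateral log2 fold change was 1.99.

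**Figure D3:**
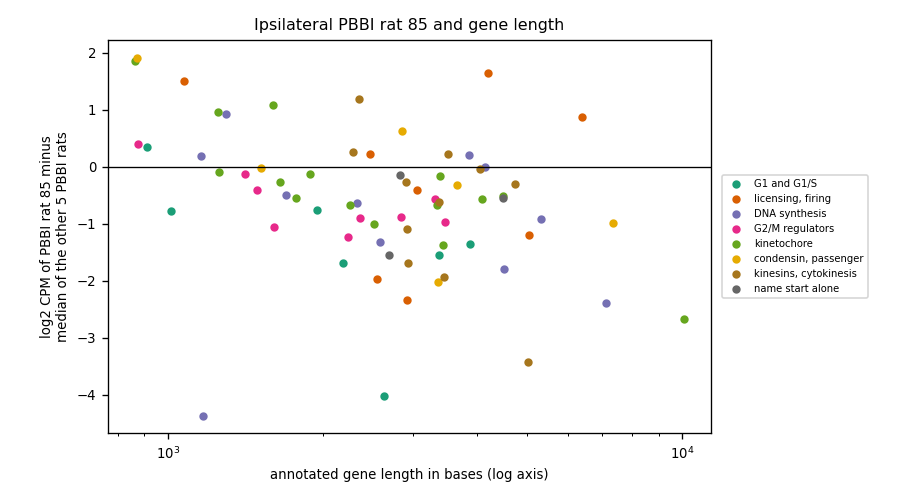
Annotated length of each of the 70 genes (x axis, log scale, bases) against the ipsilateral log2 CPM of PBBI rat 85 minus the median of the other 5 PBBI rats (y axis); colours are functional groups and the line marks no difference. Points tend to fall from left to right, with Spearman's rho at -0.36.

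The contralateral samples did not enter the call that chose the genes, so PBBI and sham rats were compared there with a test. They come from the same rats, however, and the samples of a rat deviated together from their group means (correlations of 0.246 to 0.758), so the choice of genes can carry over and the counts below are not independent of it. Of 66 genes that passed the filter (E2f8, Cenpu, Kif14 and Orc1 did not), 62 had a higher fitted level in PBBI rats and 4 a lower one, against 48.8% of all 15907 genes higher. None of the 66 passed an adjusted p of 0.05 by edgeR's quasi-likelihood test, and 0.0% of all genes did. DESeq2 and limma voom also passed 0 of these genes. At an unadjusted p under 0.05 there were 14 genes, all higher, where 1.28% of all genes were, and 7 of the 14 had an exact permutation p under 0.05. No gene had every PBBI rat above every sham rat, and 0.0943% of all genes did. The median log2 fold change was 0.51 over the 66 genes and -0.01 over all genes.

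Rat 81 weighed heavily in these contralateral values. It had the highest level of the 6 PBBI rats in 53 of the 70 genes and was among the top 2 in 64, and rat 88 was among the top 2 in 50. The samples of rat 81 from either hemisphere are labelled PFC, as is a contralateral sham sample. The labels of all remaining samples carry CC or CI instead. Whether this marks a different piece of cortex or another preparation is not stated in the sources used here. Without rat 81, 54 genes were higher, the median was 0.27 and 7 genes had an unadjusted edgeR p under 0.05. No share of all genes is given for this fit, so these counts cannot be set against a background. Rats 81 and 88 also had the highest summed astrocyte markers of the contralateral PBBI samples, at 4500 and 3400 CPM where the other 4 lay between 628 and 2070 and sham rats between 574 and 1310. That sum is nearly all Gfap, at 4140 and 3090 CPM in these rats, with Vim at 309 and 262. Gjb6, at 42.1 and 39.3, and Aldh1l1, at 16.9 and 16.6, lay within the sham ranges of 33.0 to 50.9 and 11.9 to 21.4. Over all genes, Spearman's rho of the contralateral deviation with gene length was 0.203 in rat 81, 0.121 in rat 88, 0.2 in rat 90 and -0.45 in rat 85, and over the 66 genes it was 0.274, 0.197, -0.141 and -0.33. Summed microglial markers were at 73.9 and 73.7 CPM in rats 81 and 88, above the sham range of 44.9 to 70.1. They lay within a PBBI range of 59.6 to 77.1, with rat 90 the highest. Summed leukocyte markers did not single rats 81 and 88 out, at 152 and 144 CPM within a PBBI range of 112 to 277. The leukocyte sum is mostly Lyz2, at 102 to 213 CPM in contralateral PBBI samples, so it says little of the other markers. The part of markers, length or sample label in the result was not tested.

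**Figure D4:**
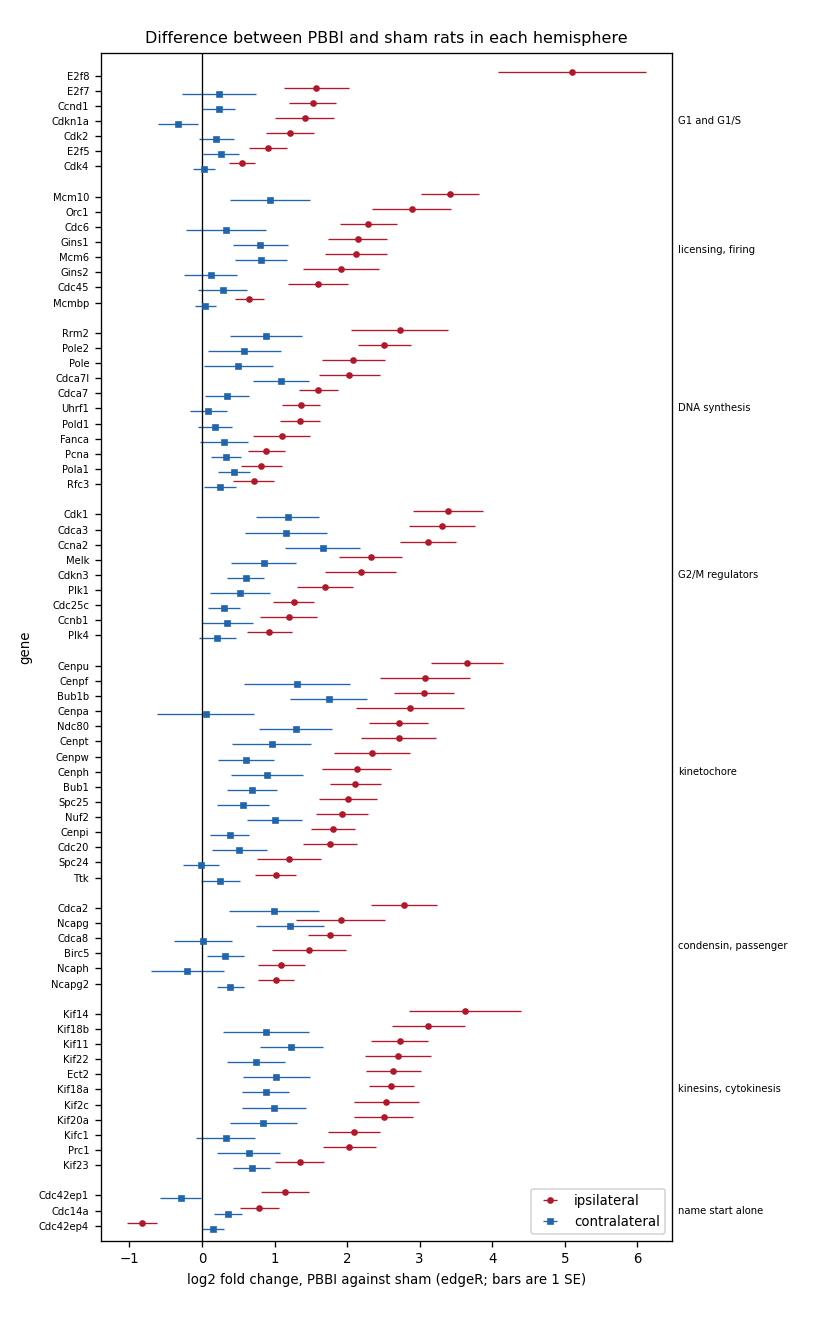
Fitted log2 fold change of PBBI against sham rats for each gene, by functional group, in the ipsilateral (red circles, 70 genes) and contralateral (blue squares, 66 genes) hemisphere, with bars of 1 SE. Ipsilateral points lie above 0 for 69 of 70 genes and contralateral points for 62 of 66, with none of the latter past an adjusted p of 0.05.

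By group, the contralateral medians were 0.34 for the 18 S phase genes tested and 0.69 for the 39 G2 and mitotic genes, with mitotic kinesins at 0.86. Of the 14 genes under an unadjusted edgeR p of 0.05, 12 were G2 and mitotic genes, which made up 39 of the 66 tested. The difference between the waves was not tested. Bub1b had the smallest edgeR p, and by exact permutation Cdkn3 had the smallest, at 0.0108 (log2 0.60). The contralateral levels of Bub1b were 3.0, 0.799, 0.605, 1.87, 0.444 and 0.505 CPM in PBBI rats 81, 83, 85, 88, 90 and 96 and 0.241, 0.425, 0.273, 0.373 and 0.483 in sham rats 82, 84, 86, 91 and 94, so 5 of 6 PBBI rats were above every sham rat. The log2 fold change was 1.75 (SE 0.53), with an unadjusted edgeR p of 0.005669, an adjusted p of 1.0 and a two-sided exact permutation p of 0.0152, where 0.00216 is the smallest p that 462 splits of the rats allow.

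Ccna2 followed at 1.66 (SE 0.52), with 4.55, 2.19, 0.657, 2.07, 0.752 and 0.644 CPM in the same PBBI rats and 0.437 to 0.729 in sham rats. Its exact permutation p was 0.0498. The other genes among the 10 smallest edgeR p-values were Cdca7l (log2 1.09), Kif11 (1.23), Cdk1 (1.18), Kif18a (0.88), Kif23 (0.68), Nuf2 (1.00), Ncapg (1.21) and Ndc80 (1.29). Their exact permutation p-values were, in that order, 0.0346, 0.0693, 0.0887, 0.039, 0.0216, 0.0455, 0.0584 and 0.0952. In Cdk1 the PBBI values were 5.71, 3.71, 1.16, 3.45, 0.991 and 1.95 CPM and the sham values 0.965 to 1.67, with 4 of 6 PBBI rats above every sham rat. The 4 genes with a lower fitted value were Cdkn1a (-0.34), Cdc42ep1 (-0.30), Ncaph (-0.20) and Spc24 (-0.02), with unadjusted edgeR p-values from 0.2423 to 0.9461.

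Both hemispheres of each rat were also set side by side, as a description, since ipsilateral samples chose the genes. Within PBBI rats the ipsilateral level was higher in 66 to 69 of the 70 genes in each rat, with a median ratio from 1.55 in rat 81 to 5.99 in rat 96. In sham rats it was higher in 27 to 40 of 70 genes, with median ratios from 0.918 to 1.06. The fitted median log2 difference between hemispheres was 1.45 in PBBI rats over 70 genes and 0.01 in sham rats over 65. Both medians come from fits that left out the pairing of a rat's hemispheres. In PBBI rats 21 genes were higher and 1 lower past an adjusted p of 0.05, where 2.97% of all genes were higher, and with the rat as a replicate block, which pairs the hemispheres of each animal, 50 were higher and 1 lower, where 6.68% of all genes were higher. Without rat 88, 90 or 96 none of the 70 passed in the unpaired fit. Nothing is read from these counts. In sham rats none passed, where 0.0% of all genes did.

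**Figure D5:**
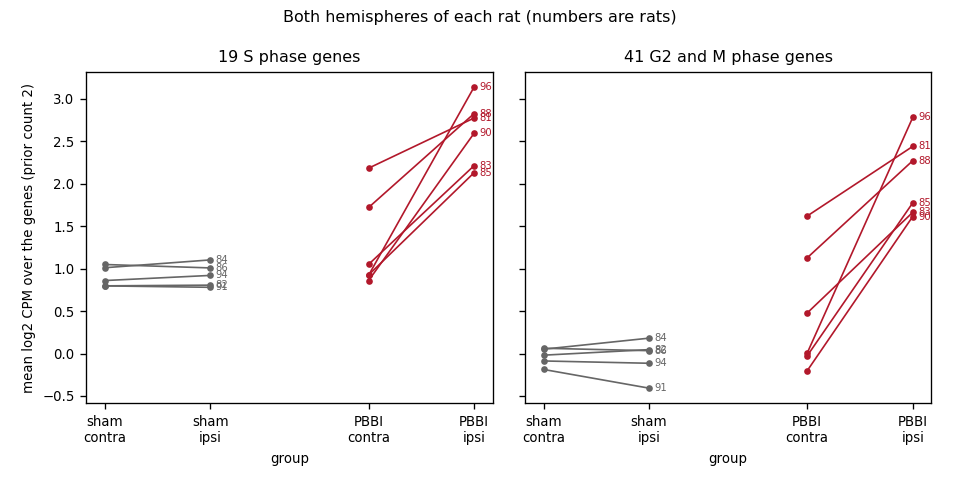
Mean log2 CPM over 19 S phase genes (left) and 41 G2 and mitotic genes (right) in the contralateral and ipsilateral samples of each rat, joined by a line, for sham (grey) and PBBI (red) rats. Every PBBI line climbs, with contralateral rats 81 and 88 above the others, and the sham lines are near level.

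Other cell cycle genes, from a list of 102 that does not overlap the 70, were named for 50, which the authors' ipsilateral call also chose. All 50 were higher ipsilaterally, where 7779 of all 16104 genes were, with a median log2 fold change of 1.77. Nothing is read from this count. Contralaterally 48 of 50 were higher, with a median of 0.52, where 48.8% of all genes were higher. By edgeR 8 were higher at an unadjusted p under 0.05, where 1.28% of all genes were, and 0 passed the adjusted threshold. These genes share the rats and the ipsilateral call with the 70, so the counts are not independent of those above. Summed over the 50, contralateral PBBI rat 81 stood at 298 CPM, rat 88 at 201 and the other 4 between 129 and 185, against 139 to 156 in sham rats. Ipsilaterally, summed leukocyte markers were at 189 to 1010 CPM in PBBI and 94.3 to 235 in sham rats, microglial markers at 82.4 to 198 and 42.3 to 62.3, and astrocyte markers at 2220 to 7420 and 461 to 1040. Members went both ways within these sums. Of the astrocyte markers Gfap and Vim were higher and Gjb6 (median 9.93 against 39.1 CPM) and Aldh1l1 (7.73 against 12.8) lower, the sum being nearly all Gfap, and of the microglial markers Tmem119 was lower (15.6 against 29.2) and the other 4 higher. The leukocyte sum was mostly Lyz2, at 145 to 769 CPM in PBBI and 83.7 to 222 in sham rats. Of the leukocyte markers 1 was at 0 in every ipsilateral sham sample. The part of these cells in the levels of the 70 genes was not tested.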

How the data were processed

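Total RNA of rat cortex was depleted of ribosomal RNA and sequenced by the authors, aligned with STAR (version 2.4.2a) to Rnor_6.0 and counted per gene with featureCounts (version 1.4.3-p1), as their processing notes and methods give it. The deposited values are raw counts, 1 column per sample, beside an annotated gene length that the authors' table gives in bases (other columns of the table were not used). How strand and reads with several alignments were handled is not given in the sources used here. Even numbers made up 60.8% to 69.6% of counts from 1 to 19 in a sample, so counts may not be independent reads. The interval given for E2f8 takes them as independent and may be too narrow even for counting error. Samples were grouped by the treatment, hemisphere and animal number of the labels, and the rats are the replicates on which p-values rest.

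Here, TMM-scaled CPM were taken over all 22 samples, and edgeR 4.0.16 (quasi-likelihood, filterByExpr, Benjamini-Hochberg adjustment over all genes) was fitted for each of 4 comparisons. Contralateral values of single genes were also tested by a two-sided exact permutation over 462 splits. Other settings tried were DESeq2 1.42.0 (prior on and off), limma 3.58.1 (voom with quality weights), other size factors, filters and sample sets, and leaving out each rat. The 2 samples of a rat come from the same animal, and their deviations from the group means correlated at 0.246 to 0.758 in 11 of 11 rats. The reported fits between hemispheres left this pairing out, and the rat as a replicate block was an alternative run. On simulated counts of the contralateral comparison (15907 genes), 170 of 200 genes changed by a log2 of 2 were recovered, with 4 false calls among 174, and in the ipsilateral one (16104 genes) 118 of 200, with 6 false among 124. That change is larger than any contralateral value of the genes described, the highest being 1.75, so smaller changes were not covered.

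The 70 genes, their functional groups and the marker lists were chosen with earlier results of these data known, and the gene length comparison, the low-count check and the 5 motif definitions were chosen after values were seen. Every gene is named once. The 4 genes with most counts of each functional group, the 5 highest and 5 lowest ipsilateral fold changes, any gene lower ipsilaterally and the 10 smallest contralateral p-values were set to be named with values, and further values were added for the description. The authors' fold changes and p-values were not used.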

Additional observations from a re-analysis of the deposited data

Results flagged for a closer look

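Dixon's gap ratio, taken on log2 CPM, was computed in groups of 5 or 6 rats for the 42 genes set to be named with values. The remaining genes were not searched, among them Rrm2 and Cenpf, where rat 85 was the lowest ipsilateral PBBI sample. The CPM printed below are not on the log scale of the ratios and do not reproduce them. A sample lay far from the rest in 12 of 168 gene and group sets, where chance gives about 5 in 100, or 8.4 sets. Of these, 3 were PBBI rat 85 as the lowest ipsilateral sample: Mcm6 at 3.98 CPM against a group median of 19.4 (ratio 0.641), E2f8 at 0.0226 against 0.647 (0.699) and Kif14 at 0.0678 against 0.826 (0.626). Rat 83 was the highest ipsilateral PBBI sample for Cdc42ep4, at 59.2 CPM against 35.6 (0.66).

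The other 8 sets were in sham rats. Ipsilaterally they were Mcm6 in rat 86 (1.76 CPM, ratio 0.826), Cdca8 in rat 84 (1.69 CPM, 0.714), Cdc42ep4 in rat 94 (85.5 CPM, 0.757), Cdc42ep1 in rat 82 (17.5 CPM, 0.74) and Mcm10 in rat 91 (0.159 CPM, 0.844). Contralaterally they were E2f5 in rat 94 (14.5 CPM, 0.794), Ncaph in rat 86 (3.68 CPM, 0.734) and Cdca8 in rat 91 (1.02 CPM, 0.758).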

How the results depend on the processing

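Contralaterally none of the genes described passed the adjusted threshold under any alternative run. Leaving out a rat gave 54 to 64 genes higher and medians of 0.27 to 0.63. At an unadjusted edgeR p under 0.05 it gave 7 to 19 genes. Each of these was lowest without PBBI rat 81, and no share of all genes is given for these fits. Some single genes changed sign. Spc24 (-0.02 in the reported fit) turned to 0.0026 with at least 10 counts in every sample, 0.3177 with voom, and ran from -0.1253 to 0.1896 when a rat was left out. With voom Cdc45 was -0.0814 (reported 0.29), Uhrf1 -0.042 (0.09), Ttk -0.1026 (0.25) and Cdca8 -0.337 (0.02). Leaving out a rat moved Uhrf1 from -0.162 to 0.1777, Cdca8 from -0.2699 to 0.154, Cdk4 from -0.0318 to 0.1201 and Mcmbp from -0.0146 to 0.0931. The cause was not tested.

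Ipsilaterally, the median log2 fold change ran from 1.88 to 2.09 when a rat was left out. Between the hemispheres of PBBI rats 22 genes passed in the reported fit. DESeq2 with or without its prior passed 48, voom 67 and the rat as a replicate block 51, and leaving out a rat gave 0 to 28. The share of all genes is given above only for the reported fit and the replicate block. Nothing is read from these counts. In sham rats the median of 0.01 became -0.0019 with the replicate block and ran from -0.0164 to 0.056 when a rat was left out, at -0.0139 without rat 84 and -0.0164 without rat 86. The replicate block changed no other call. Genes with few counts, such as E2f8, Orc1, Cenpu and Kif14, were too low contralaterally to be tested.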
